A study of Mus musculus with 12 samples.

Results

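Expression of 10 genes for calcium-binding, membrane-binding and cytoskeletal proteins was examined in sorted PD-1+CD44+CD8+ T cells of lupus-prone mice. The genes were *S100a4*, *S100a6*, *S100a10*, *S100a11*, *Lgals1*, *Lgals3*, *Anxa1*, *Anxa2*, *Vim* and *Crip1*. They were chosen by name and were 10 of the 18992 genes in the deposited expression tables. All 10 were found in each of the 3 tables. All passed the filter on low values described below, *Anxa1* only through the group where it was highest. The cells came from NZB/W F1 mice, a cross that develops lupus nephritis with age, and the mice were female per the methods of the study. The 3 groups were spleen at 12 weeks (12W spleen, before overt disease), spleen at 28 weeks (28W spleen, advanced disease) and kidney at 28 weeks (28W kidney). The labels name no treatment and no engineered allele in any group. The labels list 4 samples for each group, and the tables pool them, so each group was 1 library with no replicate and no test between groups was possible. The sample titles differ only in endings of the kind used for sequencing lanes and name no mouse, so whether the 4 are separate samples is not known. How many mice each library drew on is not given. Titles gave the groups, although for 28W spleen the labels' age entry says 12 weeks. Kidney tissue was digested with collagenase and separated on Percoll, steps not described for spleen, so organ and tissue handling cannot be told apart.

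Most S100 proteins are small calcium-binding proteins that change shape when calcium rises and then dock onto partner proteins. S100a10 forms a tetramer with annexin A2, and annexins bind membrane phospholipids in a calcium-dependent manner. Galectins bind beta-galactoside sugars on glycoproteins and can act outside as well as inside the cell. Vimentin is the intermediate filament protein of lymphocytes and mesenchymal cells, and Crip1 is a small LIM-domain protein. In CD8+ T cells these genes are known as part of the program that separates effector and memory cells from naive cells, and several of them are also abundant in neutrophils, macrophages and epithelium.

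The tables held 6894 cells in 10 clusters for 12W spleen, 6481 cells in 11 clusters for 28W spleen and 7135 cells in 12 clusters for 28W kidney, or 33 clusters in all. A library held 29937384 to 34742303 unique molecular identifiers (UMIs, a tag for each captured transcript). Levels are UMIs of a gene per 1000000 UMIs of the library or cluster (CPM), with exact 95% Poisson limits that cover counting error only. The clusters are the authors' own, made within each library, and their numbers are not matched between libraries. Between 52 and 66 barcodes were shared by each pair of libraries. A T cell marker list was detected in full in every library, at 3711 CPM in 12W spleen, 3609 CPM in 28W spleen and 4507 CPM in 28W kidney. Markers of other cells were present too. Clusters whose summed B cell, myeloid, kidney tubule or erythroid markers were over 5 times the library's cluster median and at least 500 CPM were cluster 3 of 12W spleen, clusters 8 and 10 of 28W spleen, and clusters 2, 7, 8, 11 and 12 of 28W kidney. These 8 clusters held 15.4%, 9.61% and 34.6% of the cells of the 3 libraries, in that order.

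All 10 genes had their lowest level in 12W spleen, an intermediate level in 28W spleen and their highest level in 28W kidney. Of the 7360 genes with a mean of at least 10 CPM over the 3 libraries, 22.1% had the same order. *Anxa1* passed this filter, at a mean of 10.7 CPM, only through 28W kidney (20.5 CPM). It was at 2.16 and 9.40 CPM in the spleen libraries, and it is among the genes counted as 2-fold higher below. *S100a4* was at 26.4 CPM (24.7 to 28.2) in 12W spleen, 105 CPM (102 to 109) in 28W spleen and 552 CPM (543 to 560) in 28W kidney. *S100a6* was at 122 CPM (119 to 126), 493 CPM (485 to 501) and 1654 CPM (1640 to 1669). For both genes the 3 libraries were far apart relative to their counting limits.

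**Figure D1:**
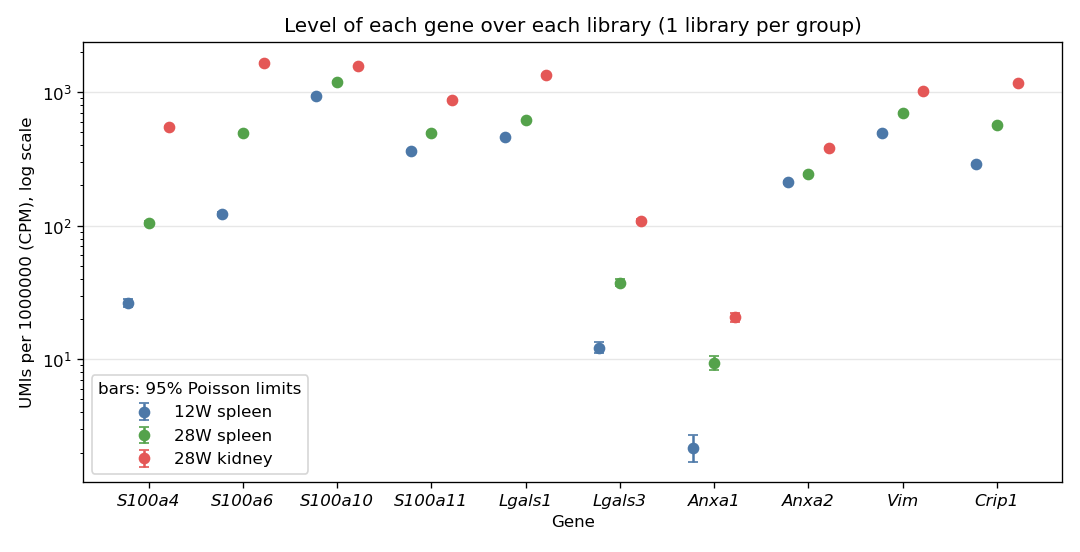
Level of each of the 10 genes (x axis) in UMIs per 1000000 on a log scale (y axis), with 1 point per library and bars for the 95% Poisson limits. Every gene is ordered 12W spleen, 28W spleen, 28W kidney from low to high, with 26.4, 105 and 552 CPM for *S100a4* and 122, 493 and 1654 CPM for *S100a6*.

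Between the ages, 4 of the 10 genes were at least 2-fold higher in 28W spleen than in 12W spleen, where 1.93% of the 7360 background genes were, and none was 2-fold lower (background 0.72%). All 10 were higher by some amount, against 34.4% of background genes. The median log2 ratio of the 10 genes was 0.73, on CPM with 1 CPM added, and that of the background was -0.09. The fold was 3.99 (3.71 to 4.30) for *S100a4*, 4.03 (3.89 to 4.17) for *S100a6*, 3.06 (2.73 to 3.42) for *Lgals3* and 4.35 (3.37 to 5.69) for *Anxa1*, the last from 75 and 301 UMIs. *Crip1* lay just under 2-fold at 1.96 (1.91 to 2.01). The other 5 genes lay between 1.15-fold (*Anxa2*, 1.11 to 1.18) and 1.41-fold (*Vim*, 1.38 to 1.44).

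Between the organs at 28 weeks, 6 of the 10 genes were at least 2-fold higher in kidney than in spleen, against 3.59% of background genes, and none was 2-fold lower (background 1.3%). All 10 were higher by some amount, against 59.8% of background genes, and the median log2 ratio was 1.05 against 0.06. *S100a4* stood 5.24-fold higher in kidney (5.05 to 5.44), *S100a6* 3.36-fold (3.30 to 3.42) and *Lgals3* 2.91-fold (2.72 to 3.11). *Lgals1* at 2.19-fold (2.15 to 2.23), *Anxa1* at 2.19-fold (1.90 to 2.52) and *Crip1* at 2.06-fold were just past 2-fold. *S100a11*, *Anxa2*, *Vim* and *S100a10* were at 1.77, 1.59, 1.45 and 1.31-fold. The 2 comparisons share the 28W spleen library. Without the cycling clusters the count for organ fell to 3 of 10, namely *S100a4*, *S100a6* and *Lgals3*. The cycling clusters are cluster 10 of 12W spleen, cluster 6 of 28W spleen and cluster 11 of 28W kidney. No background share was computed for that cluster set.

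**Figure D2:**
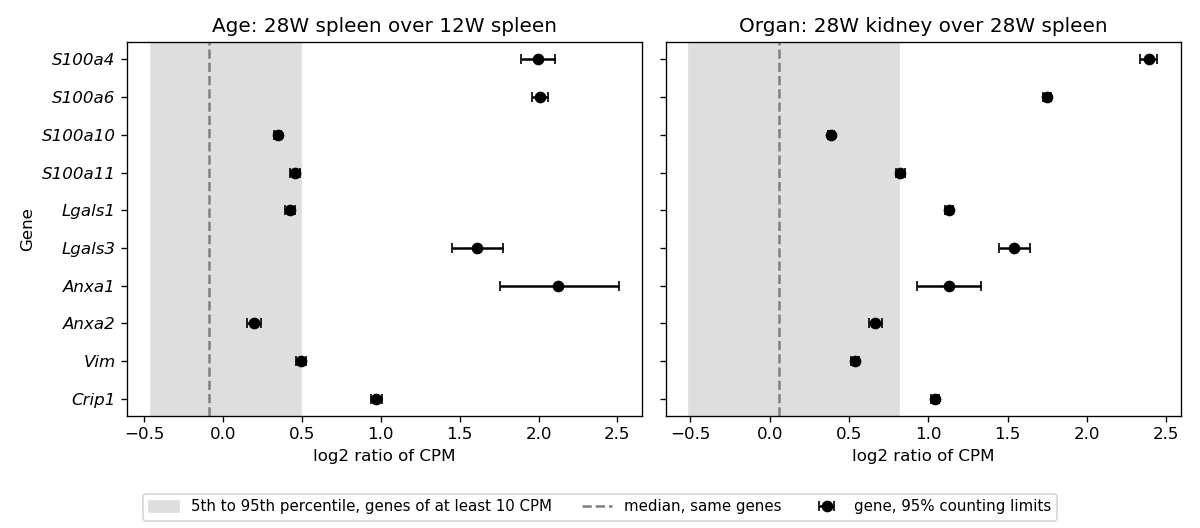
Log2 ratio of CPM for each gene (x axis) between the ages (left) and the organs (right), with 95% counting limits, over a grey band for the 5th to 95th percentile and a dashed line for the median of 7360 genes (band and line with 1 CPM added). *S100a4*, *S100a6*, *Lgals3*, *Anxa1* and *Crip1* lie to the right of the band in both panels, and *S100a10* and *Anxa2* lie inside it in both.

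The make-up of the libraries moved with these ratios. A list of 7 cytotoxic genes (*Gzmk*, *Gzmb*, *Gzma*, *Nkg7*, *Ccl5*, *Prf1* and *Cxcr6*) summed to 1973 CPM in 12W spleen, 5096 CPM in 28W spleen and 10920 CPM in 28W kidney. The chemokine gene *Ccl5* alone gave 1327, 3990 and 7495 CPM of these sums, and *Cxcr6* was lower in 28W spleen (46.5 CPM) than in 12W spleen (89.4 CPM), with 478 CPM in 28W kidney. A list of 5 naive and memory genes (*Lef1*, *Ccr7*, *Tcf7*, *Satb1* and *Dapl1*) went the other way, with 1366, 909 and 291 CPM. Neutrophil markers summed to 75.7, 290 and 635 CPM, B cell markers to 416, 672 and 2287 CPM, and erythroid markers to 2421, 504 and 323 CPM. Myeloid markers summed to 53.4, 74.9 and 422 CPM, kidney tubule markers to 0.288, 0.406 and 313 CPM, and cycling genes to 875, 947 and 1828 CPM. The part of these shifts in the members' ratios was not tested. In a level over a whole library, more cells with a transcript and more transcripts per cell cannot be told apart. With the 8 clusters of raised markers left out, *S100a4* was at 27.2, 106 and 645 CPM and *S100a6* at 122, 496 and 1920 CPM. These 8 include the cycling cluster 11 of the kidney, raised for erythroid markers (1809 CPM). The cycling clusters of both spleen libraries were kept, so the setting also takes cycling cells out of the kidney side alone. The counts of genes at least 2-fold higher without these 8 clusters were 3 of 10 by age and 4 of 10 by organ. No background share was computed for that cluster set either.

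*S100a4* and *S100a6* encode S100 proteins linked to cell motility and to effector and memory T cells. They lie close together on mouse chromosome 3 in GRCm38, with *S100a5* between them, *S100a4* at chr3:90603771-90606045 and *S100a6* at chr3:90612882-90624181, both on the plus strand and 6.84 kb apart. *S100a11* (chr3:93520488-93526287) and *S100a10* (chr3:93555080-93564643) lie 2.90 Mb further on, 28.8 kb from each other. All 10 members are annotated as protein-coding genes. GENCODE places *Gm42674* over *S100a4* on the same strand, and other annotated genes overlap *Anxa1* and *Anxa2*, so reads that such genes share may have been left out or split in counting. The RefSeq promoter windows of GRCm38.p6 (250 bases before to 50 after the start) are shown for the first pair, since these genes lie close together and had the most similar pattern of any pair of members. The S100a4 window is chr3:90603520-90603819 and the S100a6 window chr3:90612644-90612943, both read on the plus strand, with matches to 5 searched motifs in capitals.
S100a4: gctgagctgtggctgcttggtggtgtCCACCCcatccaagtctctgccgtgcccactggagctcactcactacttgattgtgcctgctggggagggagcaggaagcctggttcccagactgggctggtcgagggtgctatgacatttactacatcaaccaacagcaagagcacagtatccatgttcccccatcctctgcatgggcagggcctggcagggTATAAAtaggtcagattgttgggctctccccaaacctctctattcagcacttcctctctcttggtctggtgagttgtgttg
S100a6: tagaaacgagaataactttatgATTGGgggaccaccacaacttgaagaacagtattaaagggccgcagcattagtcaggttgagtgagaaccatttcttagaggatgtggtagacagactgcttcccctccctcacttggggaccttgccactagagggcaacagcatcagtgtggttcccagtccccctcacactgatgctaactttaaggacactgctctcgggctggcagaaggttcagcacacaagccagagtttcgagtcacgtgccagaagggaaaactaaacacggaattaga
Both strands were searched for 5 short motifs. TATAAA, the core of the TATA box, started 31 bases before the start in the S100a4 window and was present in 13.6% of 32851 mouse promoter windows. CCACCC, which Krüppel-like factors can bind, started 224 bases before the start in the same window and was present in 31.5% of windows. CCAAT, the letters of the NF-Y site, was found on the minus strand of the S100a6 window at 228 bases before the start and in 37.4% of windows. TGANTCA, the letters of AP-1, was absent from both and was present in 7.81% of windows, among them those of *S100a11* and *Anxa2*. GGTGTGA, the core read by T-box factors, was present in 3.98% of windows and in none of the 8 members' windows. These matches describe letters, not bound sites.

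In 12W spleen, most transcripts of this pair came from a single cluster. Cluster 2 held 16.2% of the cells and 11.2% of the UMIs but 67.9% of the *S100a4* UMIs and 66.6% of the *S100a6* UMIs. *S100a4* was at 161 CPM there, 33.2 CPM in cluster 10 and 1.40 to 14.6 CPM in the other 8 clusters. *S100a6* was at 730 CPM there, 122 CPM in cluster 3 and 7.22 to 78.7 CPM in the other 8. The highest cluster exceeded the lowest 115-fold for *S100a4* and 101-fold for *S100a6*, the lowest holding 7 and 36 UMIs. Cluster 2 also had the highest level of the cytotoxic list, 9602 CPM against 454 to 2458 CPM in the other clusters.

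In 28W spleen the pair was spread over more clusters. *S100a4* lay between 41.7 and 120 CPM in 9 of the 11 clusters, with 292 CPM in cluster 2 and 6.44 CPM in cluster 3. *S100a6* lay between 252 and 895 CPM in the same 9 clusters, with 1186 CPM in cluster 2 and 51.1 CPM in cluster 3. Cluster 3 had the highest naive and memory list level of that library, 1463 CPM, close to cluster 7 (1426 CPM) and cluster 11 (1408 CPM). In 10 of the 11 clusters both genes were above their median over the 12W spleen clusters (7.37 and 53.4 CPM).

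In 28W kidney no cluster was near the splenic low values. *S100a4* ranged from 114 CPM in cluster 8 to 1060 CPM in cluster 1, and *S100a6* from 311 CPM in cluster 2 to 2871 CPM in cluster 1. For *S100a4* 8 of the 12 kidney clusters, and for *S100a6* 7 of 12, were above the highest 28W spleen cluster. Against the highest 12W spleen cluster the number was 10 of 12 for both genes. The 2 kidney clusters below that line for both genes were cluster 2, which was shallow (1200 UMIs per cell) with 10.8% mitochondrial UMIs, and cluster 8, where B cell markers summed to 11394 CPM.

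**Figure D3:**
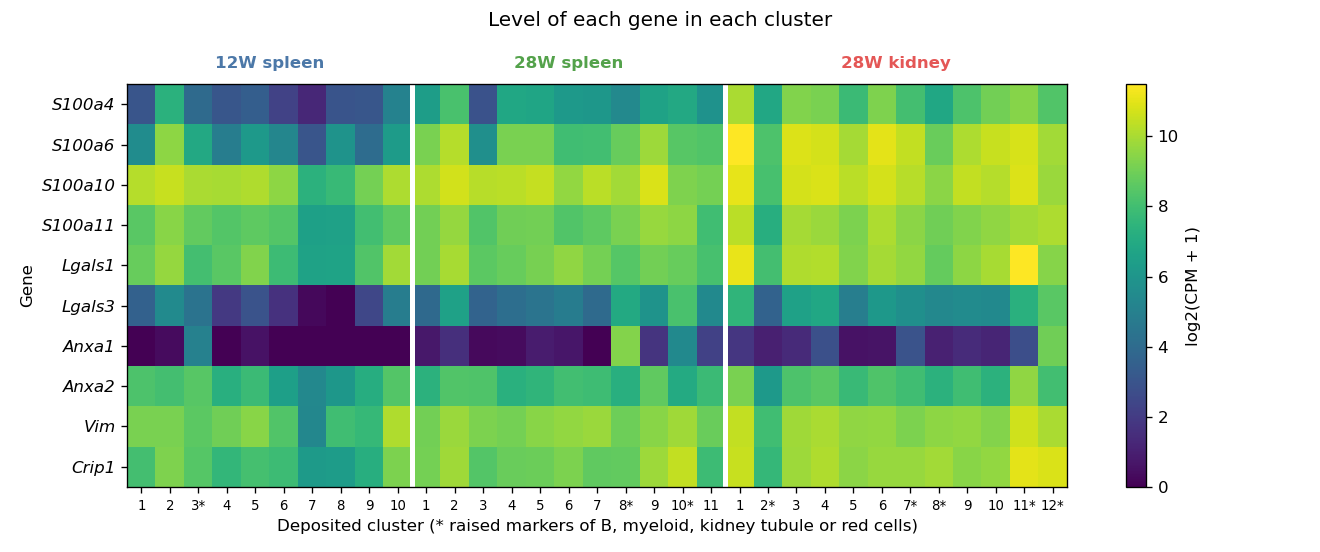
Level of each gene (rows) in each of the 33 deposited clusters (columns, grouped by library) as log2(CPM + 1), with a star on the 8 clusters with raised markers of other cells. *S100a4* and *S100a6* are dark in all 12W spleen clusters but a few and bright across 28W kidney, *S100a10* is bright throughout, and *Anxa1* stands out only in starred clusters.

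*S100a10*, the partner of annexin A2, varied far less between libraries. Over clusters it ranged from 164 to 1475 CPM in 12W spleen, 545 to 1822 CPM in 28W spleen and 280 to 2153 CPM in 28W kidney. That kidney range was 7.69-fold, against 9.29-fold for *S100a4* and 9.23-fold for *S100a6*. Over each whole library the levels were as follows. *S100a10* was at 940 CPM (930 to 950) in 12W spleen, 1194 CPM (1182 to 1206) in 28W spleen and 1562 CPM (1548 to 1576) in 28W kidney. Its median over clusters was 1033, 1233 and 1322 CPM, and 3 of 12 kidney clusters exceeded the highest 28W spleen cluster (1822 CPM, cluster 9). In cluster 4 of 12W spleen it was at 1020 CPM, where *S100a4* was at 7.43 CPM. *S100a11*, an S100 protein implicated in membrane repair, was at 360 CPM (354 to 367), 494 CPM (487 to 502) and 874 CPM (863 to 885). It was highest in cluster 2 of 12W spleen (693 CPM), in clusters 9 and 2 of 28W spleen (838 and 811 CPM, with overlapping limits) and in cluster 1 of 28W kidney (1246 CPM). In the kidney, 6 of 12 clusters were above the highest 28W spleen cluster.

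Annexin A2 and annexin A1 gave opposite pictures. *Anxa2* was at 211 CPM (206 to 216) in 12W spleen, 242 CPM (236 to 247) in 28W spleen and 383.5 CPM (377 to 391) in 28W kidney. It was detected in every cluster, and its level in the cycling cluster 11 of the kidney, 771 CPM, was the highest of the 33. Cluster 11 held 27.5% of the kidney *Anxa2* UMIs and 13.7% of all kidney UMIs, and 2 of 12 kidney clusters exceeded the highest 28W spleen cluster.

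*Anxa1*, whose protein signals through formyl peptide receptors and is abundant in neutrophils, was at 2.16 CPM (1.70 to 2.71), 9.40 CPM (8.37 to 10.5) and 20.5 CPM (19.0 to 22.2). Its transcripts came almost wholly from 1 cluster of each library. Cluster 3 of 12W spleen held 72 of 75 UMIs (96.0%), cluster 8 of 28W spleen 248 of 301 (82.4%) and cluster 12 of 28W kidney 530 of 615 (86.2%). These were the clusters with the highest neutrophil marker sums, 1166, 23839 and 18216 CPM, against at most 101 CPM in the other 30. Of the 6 neutrophil markers all were detected in those clusters of both spleen libraries, and 5 in that of the kidney, where *Retnlg* was at 0. Cluster 3 of 12W spleen and cluster 8 of 28W spleen also carried erythroid markers at 37158 and 40824 CPM, and cluster 12 of the kidney B cell and myeloid markers at 25089 and 11158 CPM.

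*Anxa1* was at 0 UMIs in 7 of the 10 clusters of 12W spleen, which allows a level of up to 0.477 to 10.5 CPM depending on the cluster's depth. Without the 8 clusters of raised markers it was at 0.0923 CPM (3 UMIs) in 12W spleen, 0.743 CPM (23 UMIs) in 28W spleen and 2.40 CPM (47 UMIs) in 28W kidney. The folds were then 8.05 (2.43 to 41.9) for age and 3.23 (1.93 to 5.58) for organ, so the same order was seen at a level of few UMIs. When the deposited cluster means were instead averaged over cells, which weights each cluster by its cells rather than its UMIs, the log2 ratio of *Anxa1* by organ was -1.30, the opposite direction.

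Galectin-1, encoded by *Lgals1* and induced on T cell activation, was at 458 CPM (451 to 465) in 12W spleen, 614 CPM (606 to 623) in 28W spleen and 1347 CPM (1334 to 1360) in 28W kidney. Its highest clusters were cycling ones in 12W spleen and kidney. Cluster 10 of 12W spleen (940 CPM, cycling list 6425 CPM) was followed by the cytotoxic cluster 2 (821 CPM). Cluster 11 of 28W kidney (2843 CPM, cycling list 9638 CPM) was followed by cluster 1 (2218 CPM), and it held 28.9% of the kidney *Lgals1* UMIs. In 28W spleen the order was the reverse, with 1001 CPM in cluster 2 and 761 CPM in the cycling cluster 6. Without the cycling cluster of each library *Lgals1* was at 412, 578 and 1110 CPM.

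*Lgals3*, for galectin-3, which is abundant in macrophages, was at 12.2 CPM (11.1 to 13.5), 37.4 CPM (35.3 to 39.6) and 109 CPM (105 to 113). Its highest cluster was cluster 2 in 12W spleen (43.6 CPM), but in the other 2 libraries it was a cluster with B cell and myeloid markers, cluster 10 of 28W spleen (288 CPM, myeloid sum 1846 CPM) and cluster 12 of 28W kidney (378 CPM). These clusters held 16.6% and 12.1% of its UMIs, so most *Lgals3* transcripts lay elsewhere. Among clusters without raised markers the highest were cluster 2 of 28W spleen (94.4 CPM) and cluster 1 of 28W kidney (185 CPM). With the raised clusters left out the levels were 11.7, 30.7 and 104 CPM, giving folds of 2.62 (2.33 to 2.96) for age and 3.37 (3.12 to 3.65) for organ. In cluster 8 of 12W spleen *Lgals3* was at 0 of 284846 UMIs, which allows up to 10.5 CPM.

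*Vim* was at 497 CPM (490 to 505) in 12W spleen, 700.4 CPM (691 to 710) in 28W spleen and 1018 CPM (1006 to 1029) in 28W kidney. It was the most even member in 28W spleen, from 469 to 917 CPM over 11 clusters, a 1.95-fold range. In 12W spleen it ranged 28.5-fold, from 38.9 CPM in cluster 7 to 1108 CPM in the cycling cluster 10. Cluster 11 was its highest in the kidney (1596 CPM). *Crip1* was at 289 CPM (283 to 294), 566 CPM (558 to 575) and 1167 CPM (1155 to 1179), and 11 of 12 kidney clusters were above its highest 12W spleen cluster (608 CPM). In 28W spleen *Crip1* was highest in cluster 10 (1368 CPM), where B cell markers summed to 20591 CPM, and in the kidney in cluster 11 (2103 CPM) and cluster 12 (1830 CPM). Both genes had their lowest kidney level in cluster 2, with 250 CPM for *Vim* and 199 CPM for *Crip1*.

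Some clusters were low for nearly every member. Cluster 7 of 12W spleen, with 13406 UMIs per cell, was the lowest cluster for 8 of the 10 genes, and all 10 were at least 2-fold below the other cells of the library, where 21.1% of background genes were. Its cytotoxic list (454 CPM) and T cell list (2172 CPM) were also the lowest of that library. Cluster 2 of 28W kidney was the lowest for 8 of the 10 genes, with all 10 at least 2-fold below the other cells against 22.7% of background genes, and cluster 8 had 7 of 10 below against 14.3%. Most *Anxa1* UMIs lay in cluster 3 of 12W spleen (96.0%) and cluster 12 of 28W kidney (86.2%). Its place among the lower genes of other clusters in those libraries therefore says little about these clusters. In cluster 8 of 12W spleen, which was shallow (928 UMIs per cell) with 8.98% mitochondrial UMIs, 9 of the 10 were at least 2-fold below the other cells, where 16.8% of background genes were. That count includes *Lgals3* and *Anxa1*, both at 0 UMIs there, which allows up to 10.5 CPM. Over the library they were at 12.2 and 2.16 CPM, so a 2-fold lower level was not measured for either. The counts of members at least 2-fold above the other cells were highest in cluster 2 of 12W spleen (5 of 10, background 2.21%), cluster 10 of 12W spleen (4, background 3.82%) and 3 each in clusters 2 and 10 of 28W spleen (background 0.774% and 4.62%) and cluster 11 of 28W kidney (background 5.86%). Since the clusters were formed on these expression data, these are descriptions.

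Members differed in how finely clusters could be ordered. Of neighbours in the order of clusters, 52 of 90 pairs in 12W spleen, 68 of 100 in 28W spleen and 61 of 110 in 28W kidney had overlapping limits. For *S100a6* in the kidney 8 of 11 neighbouring steps were apart, whereas for *Anxa1* 1 of 11 was, the step below cluster 12. A range of at least 4-fold over clusters, on CPM with 10 CPM added, was seen for all 10 members in 12W spleen (34.3% of background genes), 5 of 10 in 28W spleen (22.8%) and all 10 in 28W kidney (19%).

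Among other genes of the same families that passed 10 CPM, only *S100a8* and *S100a9* were past 2-fold. *Lgals3bp* by age (log2 ratio 0.77) and *Lmnb1* by organ (0.85) were also past the 95th percentile of background genes (0.50 and 0.81). Of 12 other S100 entries in the tables, 4 passed 10 CPM. *S100a8* (29.6 CPM in 12W spleen, 88.8 CPM in 28W spleen and 207 CPM in 28W kidney) and *S100a9* (29.6, 98.0 and 215 CPM), which form the neutrophil protein calprotectin, were at least 2-fold higher in both comparisons. Their UMIs lay 98.0% to 99.9% in the same 3 clusters as those of *Anxa1*. *S100a13* was at 182, 240 and 314 CPM and *S100pbp*, for an S100P-binding protein that is not itself an S100, at 15.1, 13.4 and 15.0 CPM. Of 10 other annexins 8 were in the tables and 4 passed, none of them past 2-fold in either comparison, among them *Anxa5* (87.2, 105 and 122 CPM) and *Anxa6* (294.5, 348 and 392 CPM). A list of 7 galectin entries includes *Lgals3bp*, for a galectin-3-binding protein that is not itself a galectin. Of these 5 were in the tables and 3 passed, also none past 2-fold, among them *Lgals9* (160, 179 and 195 CPM) and *Lgals3bp* (51.8, 88.9 and 132 CPM). Of 10 other LIM and filament genes 9 were in the tables and 3 passed, again none past 2-fold, with *Lmnb1*, for nuclear lamin B1, at 86.4, 88.1 and 160 CPM. Among family genes that did not pass, *S100a1* (70 UMIs in 28W spleen and 389 in 28W kidney), *S100g* (0 and 154) and *S100a16* (1 and 69) were past 2-fold by organ. So were *Anxa4* (157 and 397), *Lmna* (120 and 492) and *Csrp2* (102 and 256). Kidney cluster 7, with raised tubule markers, held 55.3% of the kidney *S100a1* UMIs and 91.6% of those of *S100g*.

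Sets of partner genes were compared in the same way. Of 14 binding partners and receptors, 9 passed 10 CPM and none was 2-fold higher in either comparison. The scaffold *Ahnak*, which binds the annexin A2 and S100a10 complex, was at 85.3, 138 and 223 CPM, the hyaluronan receptor *Cd44* at 31.4, 48.5 and 74.3 CPM, and *Myh9*, the myosin bound by S100a4, at 534, 560 and 534 CPM. *Cd7*, a glycoprotein bound by galectin-1, was 2-fold lower by age, with 375, 187 and 117 CPM. The formyl peptide receptor genes *Fpr1* and *Fpr2* did not pass, with at most 41 and 18 UMIs in a library. Of 12 companion genes of effector and memory T cells, all passed and only *Itgb1*, for CD29, was past 2-fold by age (122 to 406 CPM). It was at 555 CPM in 28W kidney, and none of the 12 was past 2-fold by organ. Of the 7 cytotoxic genes, 3 were 2-fold higher by age and 5 by organ, and of the 5 naive and memory genes, 2 were 2-fold lower by age and 5 by organ.

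Over the 33 clusters, the members fell into patterns that resembled each other to different degrees. The measure was Pearson r of log2(CPM + 10), given as a description, since clusters of a library share its depth and cells. Over the 45 pairs of members the median r was 0.74 (-0.03 to 0.96), and 43 pairs were above 0. No median or share for pairs of background genes stands beside these values, so whether they are particular to the members is not known. *S100a4* and *S100a6* had r = 0.96 and *S100a11* and *Crip1* r = 0.92. The 9 pairs with *Anxa1* had a median of 0.13, which depended on the measure and became 0.26 with 1 CPM added, 0.47 without the raised clusters and 0.60 as Spearman's rho. The 28 pairs without *Anxa1* and *Lgals3* had 0.80. Within libraries the median over the 45 pairs was 0.75 in 12W spleen (10 clusters), 0.35 in 28W spleen (11 clusters) and 0.81 in 28W kidney (12 clusters).

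**Figure D4:**
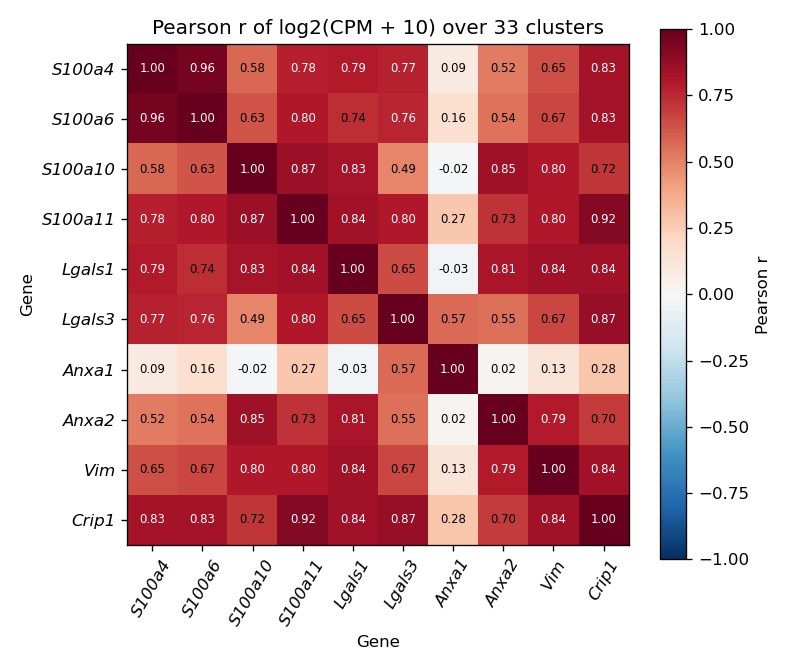
Pearson r of log2(CPM + 10) over 33 clusters for each pair of the 10 genes (rows and columns), from blue (-1) to red (1). *S100a4* and *S100a6* form the closest pair (0.96), and on this measure the *Anxa1* row runs from -0.03 to 0.28 except against *Lgals3* (0.57).

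Among 5228 other genes with a mean of at least 20 CPM, the nearest to *S100a4* were *Casp1* (r = 0.94), *Serpina3g* (0.90) and *Gzmk* (0.90), and the same 3 genes were nearest to *S100a6* (0.95 for *Casp1*, 0.93 for *Gzmk* and 0.92 for *Serpina3g*). *Casp1* encodes the inflammasome protease caspase-1, *Serpina3g* a protease inhibitor of activated T cells, and *Gzmk* granzyme K. The nearest to *S100a10* were *S100a13* (0.98), *Pla2g16* (0.95) and *Tspo* (0.93), and to *S100a11* they were *Lsp1* (0.93), *Pla2g16* (0.91) and *Vamp8* (0.91). *S100a13* lies at chr3:90514435-90524581, upstream of *S100a4* on the same chromosome.

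The nearest to *Anxa1* were the neutrophil genes *S100a8* (0.96), *S100a9* (0.96) and *Ngp* (0.95), which dropped to 0.45, 0.46 and 0.54 over the 25 clusters without raised markers. *Lgals1* was nearest to *Gng2*, *Psmb9* and *Cd52* (0.87 each), and *Lgals3* to *Ncf4* (0.89), *Efhd2* (0.86) and *Unc119* (0.84). *Anxa2* was nearest to *Clic1* (0.87), *Capns1* (0.82) and *Gnai2* (0.82), and *Vim* to *Lsp1* (0.83), *Gnai2* (0.82) and *Pla2g16* (0.82). *Crip1* was nearest to *Mif4gd* (0.89), *Ncf4* (0.88) and *Ifitm2* (0.87).

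The members also differed in how they followed the lists of cell states. Against the cytotoxic list over 33 clusters r was 0.92 for *S100a6* and 0.85 for *S100a4*, 0.77 for *S100a11*, 0.71 for *Crip1*, 0.53 for *Vim* and 0.03 for *Anxa1*. For *S100a6* it was 0.93 within 12W spleen, 0.78 within 28W spleen and 0.92 within 28W kidney, so for this gene the relation was seen inside each library. Within 28W spleen it was weaker for others, at 0.52 for *S100a4*, 0.56 for *S100a11*, 0.23 for *Crip1* and -0.20 for *Vim*. Within 28W kidney these 4 had 0.82, 0.77, 0.41 and 0.54. A list of 6 interferon-stimulated genes gave r = 0.80 for *S100a6* and 0.74 for *S100a4* over all clusters. Inside libraries these were lower. Within 12W spleen, 28W spleen and 28W kidney r was 0.70, 0.39 and 0.45 for *S100a6*, and 0.51, 0.25 and 0.37 for *S100a4*. Against the naive and memory list r was -0.81 for *S100a4* and -0.72 for *S100a6* over all clusters, but -0.23 and 0.011 within 12W spleen. It was -0.60 and -0.57 within 28W spleen and -0.53 and -0.50 within 28W kidney. Against the cycling list r was 0.37 for *Lgals1* and 0.38 for *Anxa2*, and against the neutrophil list it was 0.96 for *Anxa1*.

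**Figure D5:**
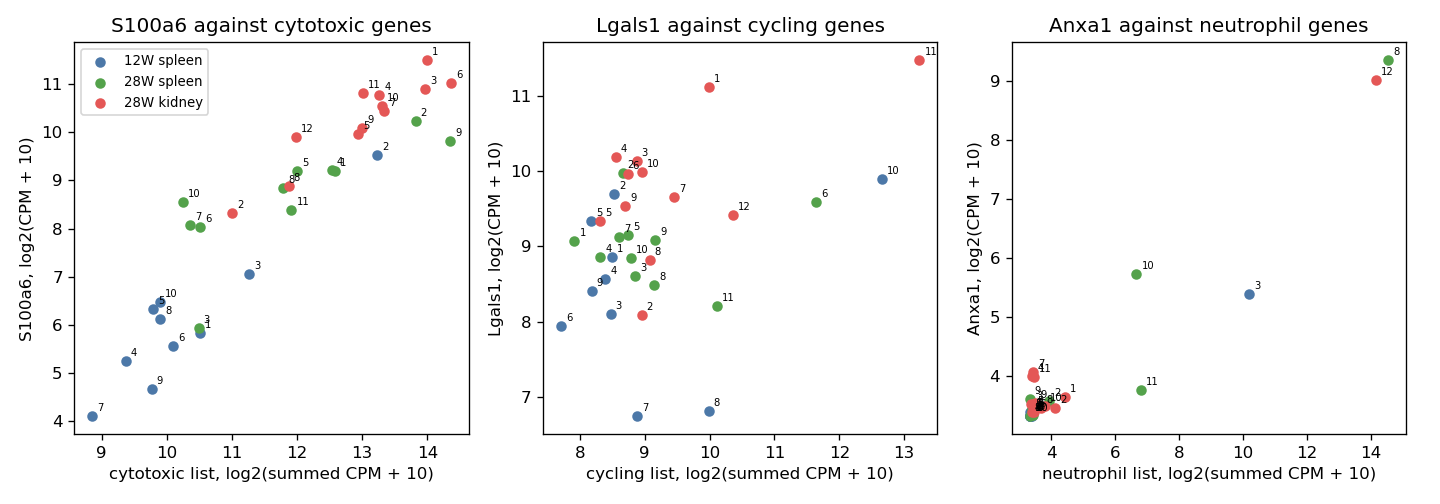
Each point is 1 of the 33 clusters, numbered and coloured by library, with a gene's log2(CPM + 10) on the y axis against log2(summed CPM + 10) of a marker list on the x axis. *S100a6* follows the cytotoxic list in every library (r = 0.92 over all), *Lgals1* is highest in the most cycling kidney cluster (2843 CPM), and *Anxa1* is raised where neutrophil markers are.

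When only the cluster with the highest cytotoxic list level of each library was set side by side (cluster 2 of 12W spleen, cluster 9 of 28W spleen and cluster 6 of 28W kidney), the gradients looked different. *S100a4* was at 161, 96.1 and 610 CPM, and *Lgals1* at 821, 533 and 990 CPM, both lower in 28W spleen than in 12W spleen. *S100a6* kept its order with 730, 895 and 2056 CPM. *S100a10* was at 1475, 1822 and 1741 CPM, and *Crip1* at 608, 897 and 834 CPM. The 28W spleen cluster was shallow, at 1706 UMIs per cell against 3467 and 3200 in the other 2, and the part of depth in these values was not tested. In the next most cytotoxic cluster of 28W spleen, cluster 2 (4621 UMIs per cell, cytotoxic list 14449 CPM), *S100a4* was at 292 CPM, *S100a6* at 1186 CPM and *Lgals1* at 1001 CPM.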

How the data were processed

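PD-1+CD44+CD8+ T cells were sorted from spleen and kidney, and 10x Genomics 5′ libraries were sequenced. The processing notes of the submitters list Cell Ranger 2.1.1, R 3.6.1 and GRCm38, and the methods of the study name a Cell Ranger vdj pipeline. The annotation release, cell filters and treatment of doublets are not given in the sources used here, and no doublet caller could be run on cluster means. The authors deposited, for each library, the cluster of every barcode and the mean count signal of each gene per cluster, which they had normalized to the median UMI count per cell. They also deposited log2 fold changes and adjusted p-values of each cluster against the rest, which were not used. T cell receptor tables were not used here.

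Dividing each column of deposited signal by its smallest value gave whole UMIs for 100% of values within 0.001. UMIs were summed over clusters and scaled to 1000000 per library, since the authors normalized the tables separately. Folds are plain ratios of CPM with exact conditional binomial limits at 95%, while log2 ratios, medians and counts of 2-fold genes used CPM + 1, which understates the change of low genes such as *Anxa1*. A group was 1 library, so no test was run and all intervals cover counting error only. UMI totals per library limit precision as given by these intervals. Background genes had a mean of at least 10 CPM. The text names the 10 members, genes of listed families and markers with a mean of at least 10 CPM or a 2-fold ratio, and for each member the 3 genes of highest Pearson r. Members of the lists outside this rule (*Fpr1*, *Fpr2* and *Retnlg*) were named after their values were seen. The members and lists were chosen with earlier results of these data known. A gene of the naive and memory list is not reported here and was left out of its sums. The alternatives tried were other pseudocounts, scalings, cluster sets and measures of correlation.

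Coordinates were taken from GENCODE M21 (GRCm38), in which 18960 of the 18992 genes were found, and promoter windows from RefSeq (GRCm38.p6), which matched 8 of the 10 members and were not used for *S100a10* and *Lgals1*. Scripts used Python 3.11.15, numpy 2.4.6, pandas 2.3.3, scipy 1.17.1 and matplotlib 3.10.9 and were tested on simulated data.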

Additional observations from a re-analysis of the deposited data

How the results depend on the processing

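Leaving aside other pseudocounts, which cannot turn a sign, the 10 genes kept their direction in 78 of 80 values by age and 75 of 80 by organ. The exceptions, as log2 ratios, were *S100a4* (-0.74) and *Lgals1* (-0.62) by age and *S100a10* (-0.066), *Anxa1* (-1.12), *Anxa2* (-0.39) and *Crip1* (-0.11) by organ in the most cytotoxic cluster of each library alone, and *Anxa1* by organ (-1.30) when the deposited cluster means were averaged over cells. The cause was not tested. In those most cytotoxic clusters *Anxa1* was at 1 UMI in each library, so its values there are no measured ratio. Some of the 80 values could not turn a sign either. Scaling by the median gene ratio, the total free of ribosomal protein, mitochondrial and T cell receptor genes, and levels per cell moved all genes by about 1 shared amount. No such shift was large enough to turn the smallest member log2 ratio (0.20 by age, 0.39 by organ). The median log2 ratio by age, 0.73, was 0.58 with 10 CPM added, 0.82 under scaling by the median gene ratio, 0.68 from the deposited means, 0.57 without clusters with raised markers, 0.87 without the deepest cluster of each library, which was also the most cycling one, and 0.30 in the most cytotoxic clusters, where 1 gene, *Anxa1*, instead of 4 was 2-fold higher. By organ, 1.05 became 0.92 with 10 CPM added, 0.92 with a total free of ribosomal protein, mitochondrial and T cell receptor genes (3 genes 2-fold higher instead of 6), 0.65 from the deposited means (2 genes higher and 1 lower), 0.96 without raised clusters, 0.89 without the deepest or most cycling cluster (3 genes), 0.20 in the most cytotoxic clusters (2 genes higher, 1, *Anxa1*, lower), 0.71 as the median over clusters (3 genes) and 0.82 per cell (3 genes). The last 3 alternatives were chosen after seeing the data. The median r of member pairs, 0.74, was 0.70 as Spearman's rho, 0.75 with 1 CPM added, 0.81 without raised clusters, and 0.75, 0.35 and 0.81 within 12W spleen, 28W spleen and 28W kidney. Without the filter on low values, 1.32% of all genes were 2-fold higher by age and 6.25% by organ. Apart from this, background shares between libraries were computed for the main setting only. The counts of 2-fold genes under other settings have no share beside them. No paired analysis was possible because the tables pool the 4 labelled samples of a group and carry no replicate number, so leaving out a replicate could not be run either. Depth limits *Anxa1* most, with 3 UMIs in 12W spleen outside raised clusters.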
